A study of Chlamydomonas reinhardtii with 2 samples.

Results

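Adenylate kinases pass a phosphate group between adenine nucleotides, turning ATP and AMP into ADP and back, and so keep the pools of these nucleotides in balance wherever ATP is made or spent. Algae and plants carry several of these enzymes, placed in the plastid, the mitochondrion, the cytosol and, in flagellated algae, the flagellum. The transcripts of 4 such genes, ADK1, ADK2, ADK3 and ADK4, were examined in Chlamydomonas reinhardtii, a unicellular green alga, with and without phosphate in the medium. They were taken as the rows of the deposited table that bear these symbols and are described as adenylate kinase, 4 of 17147 gene loci. The family was picked out with the values of both libraries known, so all values below describe these libraries and no test is given.

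The 2 libraries came from the wild-type strain CC-1690 (21gr), a laboratory strain, shaken at 200 rpm and 25 °C under unbroken light (70 µmol per m2 and s). The phosphate replete culture spent 24 h in acetate medium with 1.1 mM phosphate, and the phosphate deprived culture spent 24 h in the same kind of medium without phosphate. RNA was sequenced from 1 culture sample per condition, so no value has a replicate error and each difference is between 2 libraries. In these bulk samples, fewer expressing cells and less RNA per cell cannot be told apart. The RPKM values, which are reads scaled to transcript length and to library depth, came to a total of 901012 with phosphate and 855498 without. As a check of the labels, PSR1, PHOX, PTB2, PTB3, PTB4 and PTB5, genes known to respond to phosphate deprivation, were without exception at least 4-fold higher without phosphate (6 of 6, log2 folds of 2.24 to 6.11).

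The adenylate kinase genes did not move together. ADK3 and ADK4, the most abundant members in the replete library, were 2.19-fold and 4.80-fold lower in the deprived library as deposited. ADK1 was 1.36-fold higher there, and ADK2, the weakest member, differed as deposited by less than its counting error. On the log2(RPKM + 1) scale, which understates differences of weakly expressed genes, 2 of the 4 genes were at least 2-fold lower and 0 were at least 2-fold higher. Over the 13855 genes with a mean of at least 1 RPKM, including 406 that look read-less (a pattern described below), 1.64% were at least 2-fold lower and 5.59% at least 2-fold higher. At least 4-fold lower was 1 member, ADK4, against 0.0505% of all genes (7 genes), and at least 4-fold higher were 0 members against 1.03%. These values chose the family, so nothing further is read from the comparison with the background. Higher genes made up 77.3% of those at least 2-fold different as deposited. That share was 47.8% once both libraries were set to one median (median scaling), 57.5% with a trimmed mean, 56.4% with quantile scaling and 83.0% with both sums made equal (sum scaling).

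**Figure D1:**
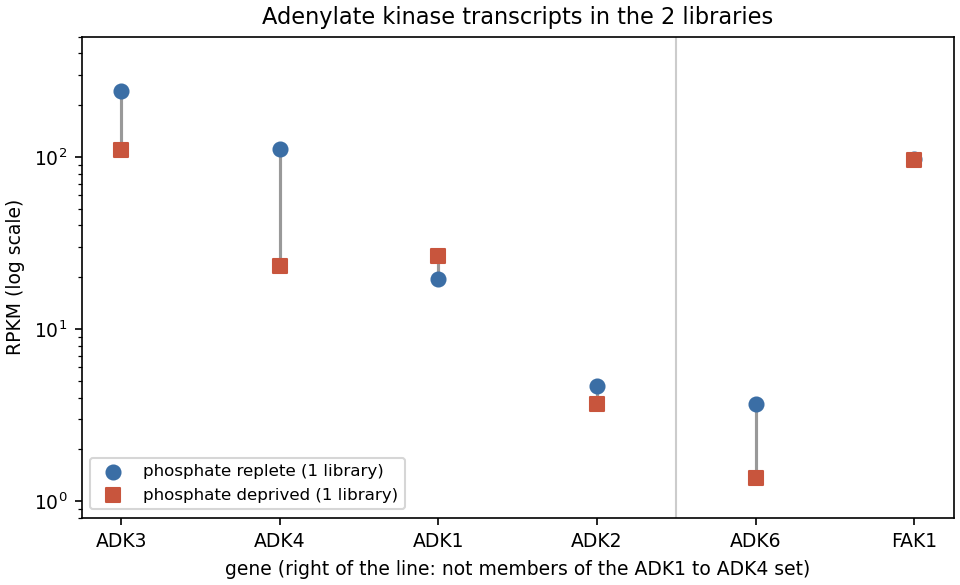
RPKM (log axis) of each adenylate kinase gene in the replete (circles) and deprived (squares) library, 1 library per condition, with a line joining both values of a gene. ADK3 and ADK4 drop from 241 to 110 and from 112 to 23.3 RPKM, ADK1 and ADK2 stay close to their replete values, and both points of FAK1 coincide near 97 RPKM.

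ADK3 (Cre12.g494850) is annotated in the table as probably sent to the chloroplast. Its C-terminal extension resembles the cysteine-bearing tail of CP12, the small protein that links glyceraldehyde-3-phosphate dehydrogenase and phosphoribulokinase of the Calvin-Benson cycle. ADK3 had 241 RPKM with phosphate and 110 RPKM without, and was the most abundant of the 4 genes in both. Its log2 fold was -1.13, and -1.27 relative to the median of 0.14 over all genes. Among the 13855 genes, 1.07% had a lower fold. By level it stood at position 372 from the top with phosphate and 718 without.

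ADK4 (Cre12.g557600), described only as a putative adenylate kinase, had 112 RPKM with phosphate and 23.3 RPKM without. This was the widest difference of the family in fold, while ADK3 had the widest in level (-131 RPKM, deprived minus replete, against -88.6 RPKM for ADK4). The log2 fold of ADK4 was -2.21, or -2.36 relative to the median of all genes. With the pseudocount of 1 RPKM it ranked 6 from the lowest of all 13855 folds. That rank depends on the pseudocount and is not given for others. ADK4 stood at position 675 by level in the replete library, ahead of 95.1% of genes, and at position 2817 in the deprived library, ahead of 79.7%. Of the 726 genes with at least 100 RPKM in the replete library, 66 (9.09%) were at least 2-fold lower, ADK3 among them. Of these, ADK4 alone was at least 4-fold lower. The limit was chosen after the values were seen and uses the replete value alone, which favours genes lower in the deprived library. ADK4 lies just above it, so nothing is read from its place among them.

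ADK1 (Cre26.g772450) carries no further annotation in the table than its name. It had 19.4 RPKM with phosphate and 26.5 RPKM without, a log2 fold of 0.43. It was the sole member above 0, where 62% of all genes lay as deposited and 63.9% without the genes that have the pattern of no reads, and its fold relative to the median of all genes was 0.28. ADK2 (Cre10.g438650), also a putative adenylate kinase, had 4.69 RPKM with phosphate and 3.68 RPKM without, a log2 fold of -0.28. ADK2 passed the mean of at least 1 RPKM with both values, as did the other members.

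**Figure D2:**
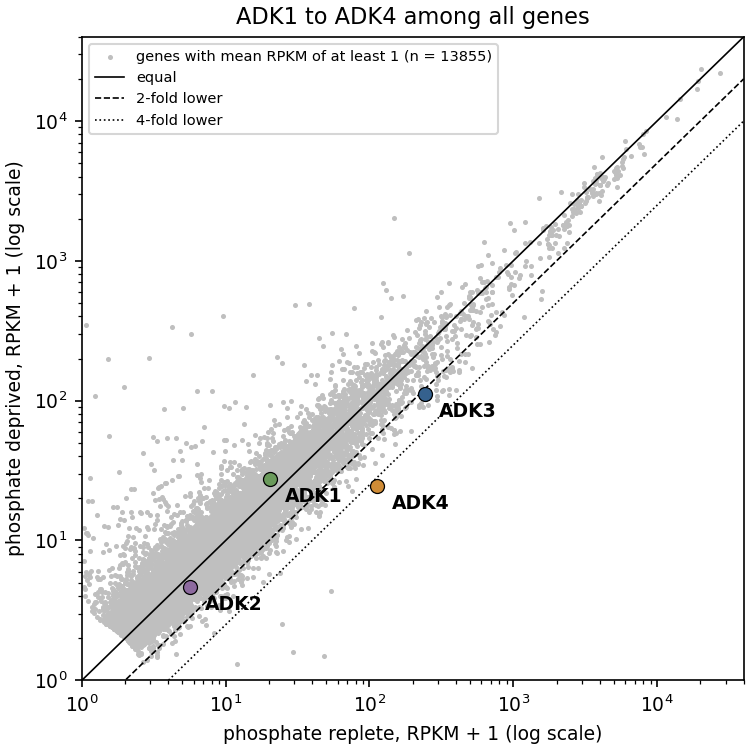
Deprived against replete RPKM + 1 (log axes) for 13855 genes (grey) and the 4 adenylate kinase genes (coloured and named), with lines of equal level and of 2-fold and 4-fold lower level. ADK4 lies beyond the 4-fold line and ADK3 just beyond the 2-fold line, while ADK1 and ADK2 lie within the cloud of genes around the line of equal level.

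Counting error was estimated from a regularity of the table. A total of 1246 genes share the ratio 0.870 between the deprived and the replete value, the pattern of genes without reads to which a fixed count was added. This is an inference from the values, which no source used here states. The read numbers take this as 1 added count in each of 2 runs per library. They also take the highest of these genes, LSM5 (161 and 140 RPKM), to have a counted length of 1 base, which was not checked. A longer one would give fewer reads and wider intervals. On these assumptions ADK4 rested on about 1391 reads per 1000 bases of transcript with phosphate and 332 without. The 95% exact binomial interval of its log2 ratio without a pseudocount was -2.44 to -2.09, around -2.26. For ADK3, with about 3001 and 1571 reads per 1000 bases, it was -1.22 to -1.05. For ADK1, with about 240 and 377 reads, the interval of 0.21 to 0.69 lay above 0. For ADK2, with about 56 and 51 reads, the interval of -0.91 to 0.24 included 0, so its difference was not detectable at this depth. These readings for the weaker pair depended on the scaling. After median scaling the interval of ADK1 was -0.05 to 0.43 and included 0, and that of ADK2 was -1.18 to -0.03 and did not, while with a trimmed mean or sum scaling both stood as deposited. These intervals assume a transcript of 1000 bases and the counted length taken for LSM5. They cover counting error only, not the spread between cultures.

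The order of the levels differed between the libraries. In the replete library it was ADK3, ADK4, ADK1 and ADK2, with ADK3 at 2.16 times the RPKM of ADK4 and ADK4 at 5.76 times that of ADK1. In the deprived library ADK1 and ADK4 stood next to each other in the reverse order, at 26.5 and 23.3 RPKM, with ADK1 at 1.13 times the level of ADK4. ADK3 was then 4.71 times as abundant as ADK4 and 4.15 times as abundant as ADK1. With 1 library per condition, it was not tested whether the close values of ADK1 and ADK4 differ beyond the spread of cultures. RPKM are scaled to transcript length, so levels of different genes can be set side by side as far as the lengths used by the authors hold.

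Summed over the 4 genes, the level was 377 RPKM with phosphate and 164 RPKM without, a ratio of 2.31. ADK3 held 63.9% of the sum with phosphate and 67.3% without. The share of ADK4 was 29.7% with and 14.3% without phosphate, and that of ADK1 was 5.15% and 16.2%. ADK2 held 1.24% and 2.25%. ADK3 and ADK4 together had 353 and 133 RPKM, while ADK1 and ADK2 together had 24.1 and 30.2 RPKM. The lower sum in the deprived library thus came from ADK3 and ADK4.

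**Figure D3:**
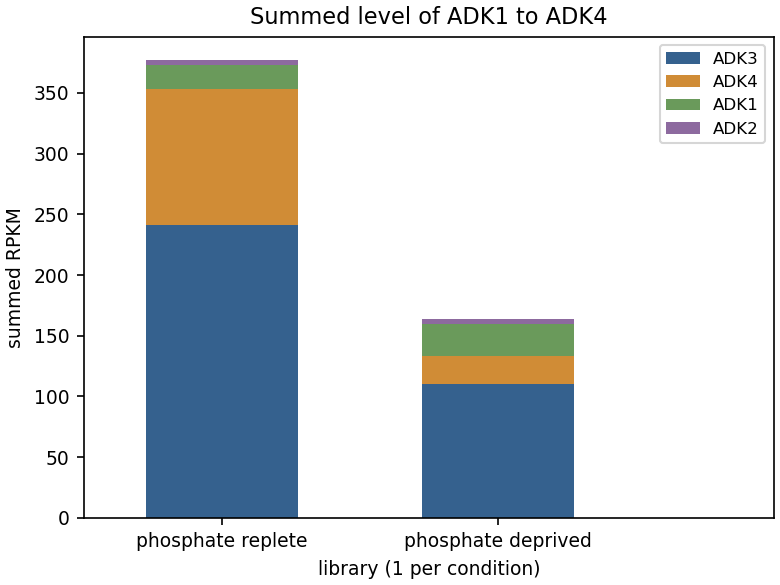
Summed RPKM of ADK1 to ADK4 with and without phosphate, 1 library each, with a coloured block for each gene. The sum is 377 RPKM with phosphate and 164 RPKM without, and the ADK4 block shrinks from 112 to 23.3 RPKM.

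The words adenylate kinase describe 2 further genes in the table, which fall outside the ADK1 to ADK4 set. FAP42, described as similar to adenylate and guanylate kinases, is not counted among them and had a log2 fold of 0.59. FAK1 (Cre01.g029750) codes for the flagellar adenylate kinase associated with ODA5, a protein needed to assemble outer dynein arms. Its level was 97.7 RPKM with phosphate and 96.3 RPKM without (log2 fold -0.02), so that of the 3 adenylate kinase genes near or above 100 RPKM in the replete library, it alone differed by less than 2-fold. In the deprived library FAK1 stood second to ADK3. ADK6 (Cre08.g377100), a putative adenylate kinase, had 3.65 RPKM with phosphate and 1.36 RPKM without. Its log2 fold of -0.97 was just short of 2-fold, and it was -0.44 with a pseudocount of 5 RPKM. ADK6 was past 2-fold without a pseudocount (-1.42), with one of 0.1 RPKM (-1.36), and after median (-1.15), trimmed mean (-1.09) and quantile scaling (-1.18). About 43 and 17 reads per 1000 bases lay behind the values of ADK6, with an interval of -2.44 to -0.70. Over all 6 genes, 5 had folds below 0 as deposited, where 38% of all genes lay (36.1% without those of the no-read pattern), with FAK1 at 0.05 after sum scaling.

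Related genes, grouped by words in their descriptions, gave 1 further gene at least 2-fold lower and 0 at least 2-fold higher among 16, beside 1.64% and 5.59% of all genes, which is too few genes to set them apart from the background. Most groups hold only a few genes, since they depend on the table's descriptions. Soluble inorganic pyrophosphatases split pyrophosphate released by biosynthesis. Of 3 pyrophosphatase genes, with a median log2 fold of -0.51 against 0.14 over all genes, IPY3 had 226 RPKM with phosphate and 95.7 RPKM without (log2 fold -1.23). IPY1, probably the chloroplast enzyme, had 705 and 493 RPKM (log2 fold -0.51). The gene for a proton-pumping pyrophosphatase of the vacuolar membrane, Cre02.g130650, had 304 and 316 RPKM, a log2 fold of 0.05 that lay below 0 after median scaling and after trimmed mean scaling.

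Adenine nucleotide carriers exchange ATP for ADP across organelle membranes. None of the 6 carrier genes was 2-fold different, and their median log2 fold was 0.20 as deposited and -0.03 after median scaling. Over all genes the median was 0.14 as deposited and -0.07 after that scaling. The 2 most abundant carriers were named after their values were seen. Of these, ANT1, a mitochondrial carrier gene, had 1604 RPKM with phosphate and 1704 RPKM without. AAA1, coding for a plastid ATP/ADP translocase, had 788 and 836 RPKM. AAA2, of the same family, had 19.8 and 27.5 RPKM (log2 fold 0.45). ANT2 and AAA3 had log2 folds of 0.33 and 0.32. ANT1 and AAA1 lay below 0 after median scaling and after trimmed mean scaling.

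Among other nucleotide kinases, 2 genes of flagellar associated proteins were found, both within 2-fold. FAP42, described as similar to adenylate and guanylate kinases, had 8.19 RPKM with phosphate and 12.9 RPKM without (log2 fold 0.59). FAP103, similar to nucleoside diphosphate kinase, had 1200 and 923 RPKM (log2 fold -0.38). The purine group held the adenylosuccinate synthase gene Cre17.g734100, for an enzyme on the route to AMP, with 114 and 79.5 RPKM (log2 fold -0.51). It also held FAP278, similar to adenosine kinase, with 152 and 116 RPKM (log2 fold -0.39). Of 3 genes for AMP-activated or SNF1-related protein kinases, a class that includes kinases responding to cellular energy state, none was 2-fold different. SAC3, a regulator of the sulfur deprivation response, had the largest fold of them (32.1 and 38.5 RPKM, log2 fold 0.25), and Cre06.g251050 and Cre06.g292700 had 0.22 and 0.09. The median of this group was 0.22 as deposited and -0.02 after median scaling. All 3 genes lay below 0 after that scaling, as did the median of all genes (-0.07).

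**Figure D4:**
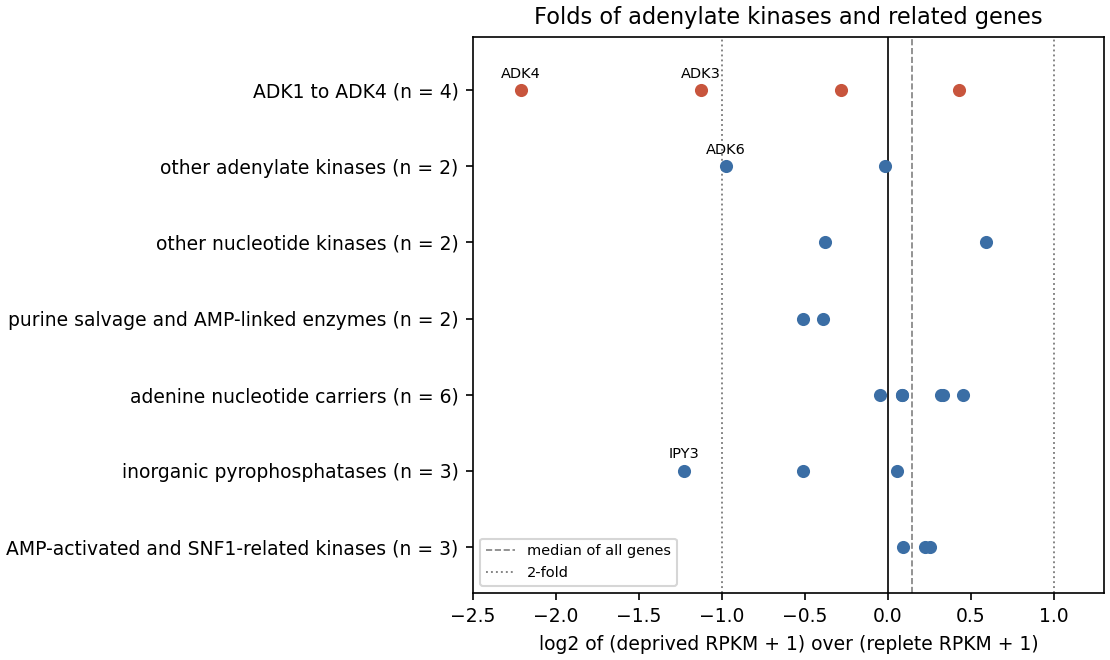
Log2 fold of deprived over replete RPKM + 1 for ADK1 to ADK4 (red) and for 6 groups of related genes (blue), 1 point per gene, with lines at 0, at 2-fold and at the median of all genes (0.14). ADK4 (-2.21), IPY3 (-1.23) and ADK3 (-1.13) lie beyond 2-fold, and ADK6 (-0.97) lies next to that line.

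Genes with the most similar pair of values were sought by the distance from each member in log2(RPKM + 1) over the 2 libraries, among genes with a symbol. A pair of values per gene is a weak measure of likeness, and a short distance says only that both levels are close. Only 3231 of the 17147 loci carry a symbol, and the others were not compared. Among those compared, ADK4 had no near counterpart. Nearest to it was GLPX1, a fructose-1,6-bisphosphatase gene (108 RPKM with phosphate and 34.8 RPKM without, distance 0.56). The glutaredoxin gene GRX6 came next, with 75.2 and 21.7 RPKM, at 0.58. Few genes have a fold as low as that of ADK4, so these distances restate its fold. The other members had far closer neighbours. Nearest to ADK3 were COP2, a chlamyopsin gene (245 and 116 RPKM, distance 0.07), and PRPL31, a plastid ribosomal protein gene (252 and 105 RPKM, distance 0.09). ADK1 was nearest to NUDC (19.5 and 26.5 RPKM, distance 0.0011) and the A-type cyclin gene CYCA1 (19.5 and 25.6 RPKM). ADK2 was nearest to CPS2 and ABH1, coding for a polyadenylation factor subunit and an mRNA cap-binding protein, both at a distance of 0.03.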

How the data were processed

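The authors deposited RPKM values for 17147 gene loci, 1 library per condition, and the unit is that given in the deposited table. Per the submitters' processing notes, Bowtie was used; no version is named. The sources used here do not give the counting method, strand use, build or annotation, so no coordinates are printed and reads shared by similar or overlapping genes are an open limit. Table columns were matched to libraries by the library code in the labels. Each fold is a log2 ratio, deprived to replete, with a pseudocount of 1 RPKM on both sides, for 13855 genes with a mean of at least 1 RPKM. No p-value was computed. The members and the gene groups were chosen with earlier results of these data known. The related groups were set by words in symbols and descriptions; the 3 genes of each with the largest absolute fold are named, as are every gene described as adenylate kinase and the 2 genes nearest to each member. Flanking genes and the CP12 partners were added after values were seen. Alternatives were pseudocounts of 0.1, 5 and 0 RPKM, 4 scalings, and filters of 0 and 5 RPKM. The fold and scaling calculations were tested on simulated data, while the read numbers and intervals were not (Python 3.11.15, pandas 2.3.3, SciPy 1.17.1).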

Additional observations from a re-analysis of the deposited data

How the results depend on the processing

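ADK1 stayed above 0 and ADK2, ADK3 and ADK4 below 0 under all 3 other pseudocounts and all 4 scalings, with log2 folds of 0.17 to 0.50, -0.50 to -0.16, -1.39 to -1.05 and -2.47 to -2.04. Members at least 2-fold lower numbered 2 and at least 2-fold higher 0 under these settings. Both other filters keep ADK3 and ADK4 and leave each fold as it is, so the counts could not change under them. The filter of 5 RPKM leaves out ADK2, which had a mean of 4.18 RPKM. Over the 6 genes described as adenylate kinase, those at least 2-fold lower numbered 2 as deposited, with a pseudocount of 5 RPKM and after sum scaling. They numbered 3, with ADK6, with a pseudocount of 0.1 RPKM or none and after median, trimmed mean and quantile scaling, settings combined after seeing the data. Median scaling, which sets both libraries to a common median, moved the median over all genes by -0.21. It moved the folds of ADK1, ADK3 and ADK4 to 0.17, -1.39 and -2.47. These shifts, not the folds reached, exceeded the counting error, and the interval of ADK1 after this scaling (-0.05 to 0.43) included 0. Trimmed mean scaling moved the median over all genes by -0.14 and ADK3 to -1.30, and quantile normalization moved that median by -0.17.

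Counts over all genes depended on the settings. At least 2-fold higher were 1277, 1376 and 286 genes with a pseudocount of 0.1 RPKM, none and 5 RPKM, 470 after median scaling, 512 after quantile scaling and 511 with a mean of at least 5 RPKM. At least 2-fold lower were 356 without a pseudocount, 115 with 5 RPKM, and 514, 400 and 395 after median, trimmed mean and quantile scaling, in that order. At least 4-fold higher were 236, 254 and 57 with 0.1 RPKM, none and 5 RPKM. At least 4-fold lower were 13 with 0.1 RPKM, 17 without a pseudocount and 12 after median scaling. Leaving out genes at the shared ratio was chosen after seeing the data. Since that ratio, 0.870, is well within 2-fold, this could not change these 4 counts or the place of ADK4 among the lowest folds. It gave a median over all genes of 0.16 in place of 0.14. Of 18 related genes, 8 changed sign under some setting. No paired analysis was possible because each condition has 1 library.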

Other observations

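The CP12-like tail of ADK3 prompted a look at CP12 and its partners, chosen after the values of ADK3 were seen. CP12 had 1678 RPKM with phosphate and 1764 RPKM without (log2 fold 0.07), and the phosphoribulokinase gene PRK1 had 506 and 485 RPKM (log2 fold -0.06). GAP3, coding for the plastid glyceraldehyde-3-phosphate dehydrogenase, had 1863 and 1232 RPKM (log2 fold -0.60). None of the 3 was 2-fold different, beside 1.64% of all genes at least 2-fold lower and 5.59% at least 2-fold higher. So few genes cannot be set apart from the background. The difference between their folds and that of ADK3 (-1.13) was not tested.

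The genes next to the members, in the gene order of RefSeq assembly Chlamydomonas_reinhardtii_v5.5, were also chosen after the members' values were seen. Locus tags matched for 3 of the 4 members, without ADK1. Of the 12 genes within 2 positions on either side of ADK2, ADK3 and ADK4, 10 had a mean of at least 1 RPKM. Of these, 0 were 2-fold different (log2 folds of -0.67 to 0.68). Over all genes, 1.64% were at least 2-fold lower and 5.59% at least 2-fold higher, so 10 genes are too few to set apart from the background. Beside ADK4, 3 genes passed, with log2 folds of -0.03 to 0.39 and none above 5 RPKM in either library. Next to ADK3 lie IDA4, an inner arm dynein light chain gene with 44.0 RPKM with phosphate and 71.3 RPKM without (log2 fold 0.68), and Cre12.g494900, a protein phosphatase catalytic subunit gene with 28.4 and 31.9 RPKM.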
